A study of Mus musculus with 17 samples.

Results

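Lin28a, Lin28b, Trim71 and L1td1 encode RNA-binding proteins of embryonic and germline cells. Their transcripts were compared between lines of spermatogonial stem cells and lines of the multipotent cells that arise in such cultures. These are established lines, and no stage in between was sequenced. The genes were picked by name, 4 of the 23891 gene symbols in the files, and L1td1 was included because of its large rise from SSC to MASC lines, so that its values against SSC lines are given as a description without a test. Each of the 4 genes has 1 transcript in the files, and all of them had an FPKM of at least 1 in 2 or more samples. FPKM is the number of sequenced fragments per kilobase of transcript, scaled between samples, here with upper-quartile and GC-normalization. It is a value per length, so that levels can be set side by side between genes.

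RNA-seq covered 17 mouse samples. The 4 SSC lines (spermatogonial stem cells from adult testis, 2 from Oct4-GFP, 1 from C57Bl/6J and 1 from 129mix mice) had been expanded in culture on MEF feeder cells. Their medium held GDNF, basic fibroblast growth factor and epidermal growth factor. The 6 MASC lines (multipotent adult spermatogonial-derived stem cells, 2 each from Oct4-GFP, 129mix and Gt(ROSA26)Sor-lacZ mice) were colonies that appeared spontaneously in long-term SSC cultures and were picked mechanically. They were compared with 2 ESC lines (1 Oct4-GFP and 1 129mix) and with 2 iPS lines of 129mix background, made from E13.5 fibroblasts that carry tetO-4F2A, a cassette of the reprogramming factors Oct4, Sox2, Klf4 and c-Myc, with doxycycline at 2 µg/ml. MASC, ESC and iPS lines were grown with LIF on MEF feeders, in a different medium from the SSC lines. In every comparison with SSC lines, cell type and medium therefore cannot be told apart. The somatic samples were 2 HSC cultures (lineage-negative bone marrow cells from C57Bl/6J mice, grown on human endothelial feeder cells with Kit ligand) and 1 MEF sample (129mix, E13.5 embryos). The iPS and MEF samples also carry a tagged histone allele, H3.3B-HA.

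LIN28A and its paralogue LIN28B bind the precursors of the let-7 microRNAs and block their maturation, whereas mature let-7 represses Lin28a, Lin28b and Trim71 through sites in their 3′ UTRs, which makes the pathway a double-negative loop. TRIM71 is a ubiquitin ligase family member that binds and represses mRNAs and was first described in worms, as LIN-41, among the targets of let-7. L1TD1 derives from the open reading frame of a LINE-1 retrotransposon and is found in ribonucleoprotein complexes with LIN28 in pluripotent cells. LIN28A also marks undifferentiated spermatogonia in the mouse testis.

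The let-7 arm of this loop is shown by sequence, because the seed (bases 2 to 8 of the mature microRNA) is what pairs with the 3′ UTR sites. All 12 let-7 family hairpins of the list (including Mir98) carried the same seed in the mature sequences of RefSeq (GRCm38.p6), in 9 distinct 5p arms. In the following examples the seed is in capitals.
let-7a-5p: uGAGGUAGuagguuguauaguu
let-7d-5p: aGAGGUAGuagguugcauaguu
let-7g-5p: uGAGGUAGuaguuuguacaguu
miR-98-5p: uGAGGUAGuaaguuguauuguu
LIN28 is known to recognise the bases GGAG near the loop of a let-7 precursor. Searched on the hairpin strand, between the 2 arms or up to 2 bases into the 3p arm, GGAG was found in 9 of the 12 hairpins, compared with 8.54% of the 644 mouse hairpins with both arms listed. The hairpin of let-7g has it, as shown here with the seed and GGAG in capitals, and that of let-7b does not.
let-7g hairpin: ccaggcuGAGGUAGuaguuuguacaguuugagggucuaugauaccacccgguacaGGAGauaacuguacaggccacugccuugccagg
let-7b hairpin: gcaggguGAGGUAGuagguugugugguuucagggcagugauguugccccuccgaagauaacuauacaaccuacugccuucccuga

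The complement of the seed, CTACCTC, was searched on the transcript strand in the 3′ UTR of 1 GENCODE M1 transcript of each gene, whose exons were read on mm9. Lin28a (NM_145833) lies at chr4:133559245-133574731 on the minus strand, and its transcript has 4 exons and a 3′ UTR of 2775 bases with 2 matches. Lin28b (NM_001031772) lies at chr10:45096425-45190007 on the minus strand, with 5 exons and 4 matches in a 3′ UTR of 4445 bases. Trim71 (NM_001042503) lies at chr9:114420391-114473487 on the minus strand, with 4 exons and 2 matches in 1370 bases. L1td1 (NM_001081202), at chr4:98393445-98405177 on the plus strand, has 5 exons and no match in its much shorter 3′ UTR of 364 bases. The motif was present in 8.8% of 19915 genes (longest 3′ UTR of each, median 893 bases), and in 17.1% of the 7101 genes with a 3′ UTR of at least 1370 bases. The sites are printed with 15 bases before and 1 after the match, which is in capitals. An A after the match, which extends it to 8 bases, was present at both sites of Lin28a, both of Trim71 and 1 of 4 of Lin28b.
Lin28a site 1: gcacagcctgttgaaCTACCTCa
Lin28a site 2: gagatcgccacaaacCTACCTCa
Lin28b site 1: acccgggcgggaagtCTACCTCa
Lin28b site 2: tatacttgttagtaaCTACCTCt
Lin28b site 3: gtttacagcacatggCTACCTCc
Lin28b site 4: aaatgatggcaccgaCTACCTCt
Trim71 site 1: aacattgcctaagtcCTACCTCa
Trim71 site 2: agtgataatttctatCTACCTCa
All are 3′ UTR positions on the minus strand of mm9. The Lin28a sites are at chr4:133561104-133561126 and chr4:133560466-133560488. Those of Lin28b are at chr10:45100828-45100850, chr10:45098454-45098476, chr10:45098282-45098304 and chr10:45096866-45096888. The Trim71 sites are at chr9:114421590-114421612 and chr9:114421494-114421516. A match of letters is a description and does not show that a site is used. The Lin28a locus overlaps the long noncoding gene Gm13061 on the opposite strand, and whether the libraries keep strand is not given in the sources used here.

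A value of 1 FPKM corresponded to a Cufflinks coverage of 1.26 (lowest sample) to 3.23 (highest sample) reads for each base, so that values under about 0.1 FPKM rest on few reads. Marker sums followed the labels: 8 pluripotency markers summed to 2831 to 4439 FPKM in MASC lines and 12.8 to 155.5 in SSC lines, and 9 spermatogonial markers to 96.5 to 171.0 and 650.5 to 761.8. Of these 9, 8 were called lower and 1 higher in MASC than in SSC lines, beside 19.5% and 11.4% of all transcripts. The higher one was Etv5, at 81.1 to 127.8 FPKM in MASC and 11.4 to 123 in SSC lines. Etv5 alone made up most of the spermatogonial sum in every MASC line. Within SSC lines, SSC.1 stood apart with 94.5 FPKM of Pou5f1, against 1.37 to 5.42 in the other 3 lines. Fibroblast marker transcripts (8 genes) varied within groups, from 22.2 to 743.4 summed FPKM in SSC lines and from 17.4 to 849.8 in MASC lines, against 5233 in the MEF sample. The somatic samples were mixed by the same measure: HSC.2 had all 8 fibroblast markers at 1 FPKM or more (sum 345.4, against 1.12 in HSC.1), and the MEF sample had all 7 blood markers (sum 82.0, against 716.8 to 908.4 in HSC cultures). Of 7 early differentiation markers, 2 were called higher and 1 lower in MASC than in SSC lines. The part of these in the results was not tested. In bulk RNA, fewer cells that express a gene and less RNA per cell cannot be told apart.

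Lin28a, Lin28b and Trim71 were already present in SSC lines, well above their somatic levels, whereas L1td1 was close to 0 in SSC lines and among the most abundant transcripts of MASC, ESC and iPS lines. The mean level of Lin28a in SSC lines was above that of 97.4% of gene symbols, and Trim71 was above 91.1% and Lin28b above 63.3%. L1td1 was above 31.4% of symbols in SSC lines and above 98.4% in MASC lines. All 4 genes were at or below 0.392 FPKM in the HSC cultures and the MEF sample. The separation of L1td1 from the other 3 genes can be seen in the plot of levels by sample.

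**Figure D1:**
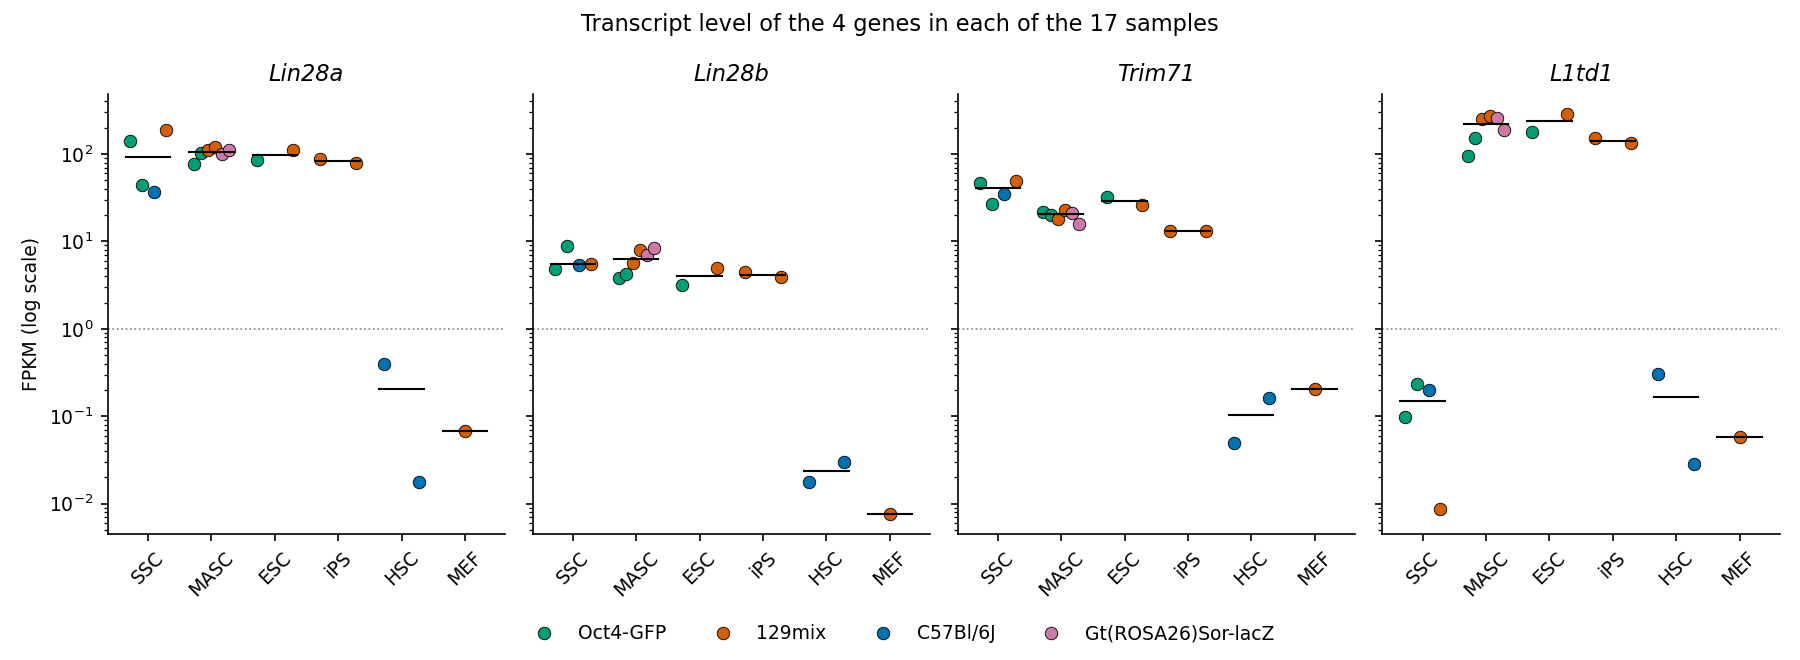
FPKM (log axis) of each gene in each of the 17 samples, with 1 point per sample coloured by strain, a bar at each group's median and a dotted line at 1 FPKM. Lin28a, Lin28b and Trim71 lie above 1 FPKM in SSC, MASC, ESC and iPS lines and below it in HSC and MEF samples, whereas the 4 SSC points of L1td1 lie with the somatic samples, at 0.00863 to 0.232 FPKM.

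Lin28a, the paralogue with the higher level, was at 141.1, 44.6, 36.9 and 189.6 FPKM in SSC.1 to SSC.4, with a mean of 103.0 ± 74.7 (SD, n = 4). In the 6 MASC lines the lowest value was 76.4, the median 106.5 and the highest 119.1 FPKM, with a mean of 103.6 ± 14.8 (SD, n = 6). The ESC lines had 84.5 and 112.5 FPKM and the iPS lines 88.5 and 78.9. The means of SSC and MASC lines were thus nearly equal, but the SSC lines spread over a 5.14-fold range on both sides of all MASC lines, which spread over 1.56-fold. The 2 low SSC lines were of different strains (SSC.2 of Oct4-GFP and SSC.3 of C57Bl/6J), as were the 2 high ones. The sum of fibroblast markers was lowest in SSC.2 (22.2 FPKM) and highest in SSC.3 (743.4), the 2 lines with low Lin28a, and lay between these in SSC.1 (313.6) and SSC.4 (85.9). SSC.1, the line with 94.5 FPKM of Pou5f1, was the second highest in Lin28a, and SSC.4, with 5.42 FPKM of Pou5f1, was the highest. On the log2(FPKM + 1) scale, MASC minus SSC was 0.33 ± 0.44 (SE), with a 95% confidence interval of -0.66 to 1.31, and was not called (limma over the 12 SSC, MASC and ESC lines, Benjamini-Hochberg adjusted p = 0.662). The sign of this small difference depended on single lines, being -0.05 without SSC.3, and the interval is too wide to say that the groups have like levels.

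Lin28b was at a much lower level than Lin28a in every pluripotent and SSC line. It was at 4.88, 8.80, 5.42 and 5.51 FPKM in SSC.1 to SSC.4, a mean of 6.15 ± 1.79 (SD, n = 4). In MASC lines it ranged from 3.87 to 8.45 with a median of 6.32 and a mean of 6.18 ± 1.90 (SD, n = 6). The ESC lines had 3.18 and 4.94 FPKM and the iPS lines 4.44 and 3.88. All of these groups overlapped, except that both iPS lines lay below the lowest SSC line. MASC minus SSC was -0.01 ± 0.23 (SE) on the log2 scale (95% confidence interval -0.53 to 0.51, limma adjusted p = 1), and its interval was narrower than that of Lin28a.

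The balance between the paralogues was taken per line as the log2(FPKM + 1) of Lin28a minus that of Lin28b. SSC.1 and SSC.4 had 28.9 and 34.4 times as much Lin28a as Lin28b by FPKM, whereas SSC.2 and SSC.3 had 5.06 and 6.80 times. The ratio was between 13.1 and 24.2 in the MASC lines, 26.6 and 22.8 in the ESC lines, and 19.9 and 20.3 in the iPS lines. The SSC values therefore lay on either side of every MASC value. The mean log2 difference was 3.56 ± 1.37 (SD, n = 4) in SSC and 3.89 ± 0.28 (SD, n = 6) in MASC lines, and these means were not distinguishable (difference 0.33, exact two-sided permutation test over lines, p = 0.552, where 0.00476 is the smallest p that 210 arrangements allow).

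**Figure D2:**
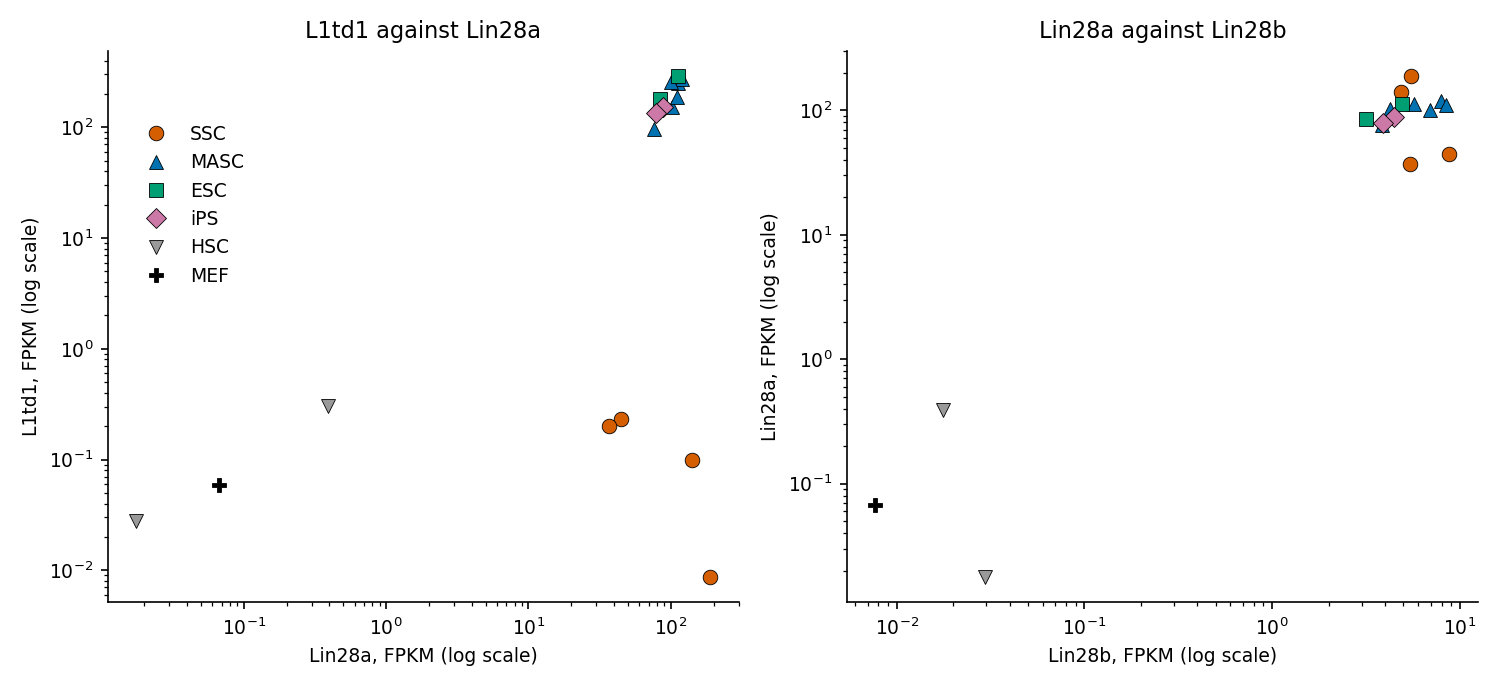
L1td1 against Lin28a (left) and Lin28a against Lin28b (right), in FPKM on log axes, with 1 symbol per sample and a shape per group. On the left the 4 SSC lines sit alone at high Lin28a (36.9 to 189.6) and low L1td1. On the right they spread along the Lin28a axis, on which the MASC, ESC and iPS lines lie closer together. Along the Lin28b axis the MASC lines (3.87 to 8.45) spread at least as far as the SSC lines (4.88 to 8.80).

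Of the 3 genes tested between MASC and SSC lines, Trim71 changed: it fell from SSC to MASC lines. It was at 46.9, 26.6, 35.4 and 49.8 FPKM in SSC.1 to SSC.4, a mean of 39.7 ± 10.7 (SD, n = 4). In MASC lines the lowest was 16.0, the median 20.8 and the highest 22.7 FPKM, a mean of 20.0 ± 2.51 (SD, n = 6). Every SSC line was above every MASC line. The difference was -0.92 ± 0.17 (SE) on the log2 scale, with a 95% confidence interval of -1.32 to -0.53 (limma adjusted p = 0.00289), so that the FPKM + 1 of MASC lines was 0.527 times that of SSC lines. The median transcript with a mean of at least 1 FPKM differed by -0.104 in the same comparison. Among Lin28a, Lin28b and Trim71, 1 of 3 was called, compared with 30.9% of the 32661 transcripts tested (11.4% higher and 19.5% lower in MASC lines), a share that does not set the genes apart. The fall was present within both strains with SSC and MASC lines, at -0.73 in Oct4-GFP (2 against 2 lines) and -1.26 in 129mix (2 MASC lines against 1 SSC line), and stayed between -1.10 and -0.80 with each line left out. Without SSC.1, the line that stood apart in Pou5f1, it was -0.83 (limma adjusted p = 0.0105), and without MASC.1, the line with the most fibroblast marker RNA, it was -0.95 (adjusted p = 0.00566). It did not reach a log2 difference of 2, a stricter rule that 3.86% of transcripts passed together with the adjusted p.

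The other pluripotent lines placed Trim71 in a descending order from SSC to ESC, MASC and iPS lines. The ESC lines had 32.3 and 25.9 FPKM, above every MASC line and overlapping the SSC range. ESC minus SSC was -0.40 ± 0.23 (95% confidence interval -0.93 to 0.13, limma adjusted p = 0.285) and MASC minus ESC was -0.52 ± 0.22 (-1.02 to -0.03, adjusted p = 1), so neither step was called. In these comparisons 21.4% (7.67% higher and 13.8% lower) and 0.0306% of all transcripts were called. The iPS lines had 13.2 and 13.2 FPKM, below every other line in the order, and iPS minus SSC was -1.48 ± 0.21 (-1.95 to -1.01, limma over 17 samples, adjusted p = 0.000394), with 24.5% of transcripts called (8.93% higher and 15.6% lower). Against MASC lines the iPS lines differed by -0.55 ± 0.20 (adjusted p = 0.239) and against ESC lines by -1.07 ± 0.25 (adjusted p = 0.118). These were not called, and the shares of transcripts called were 1.97% and 0.309%. The comparisons against SSC lines share the same 4 SSC samples and are not independent.

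**Figure D3:**
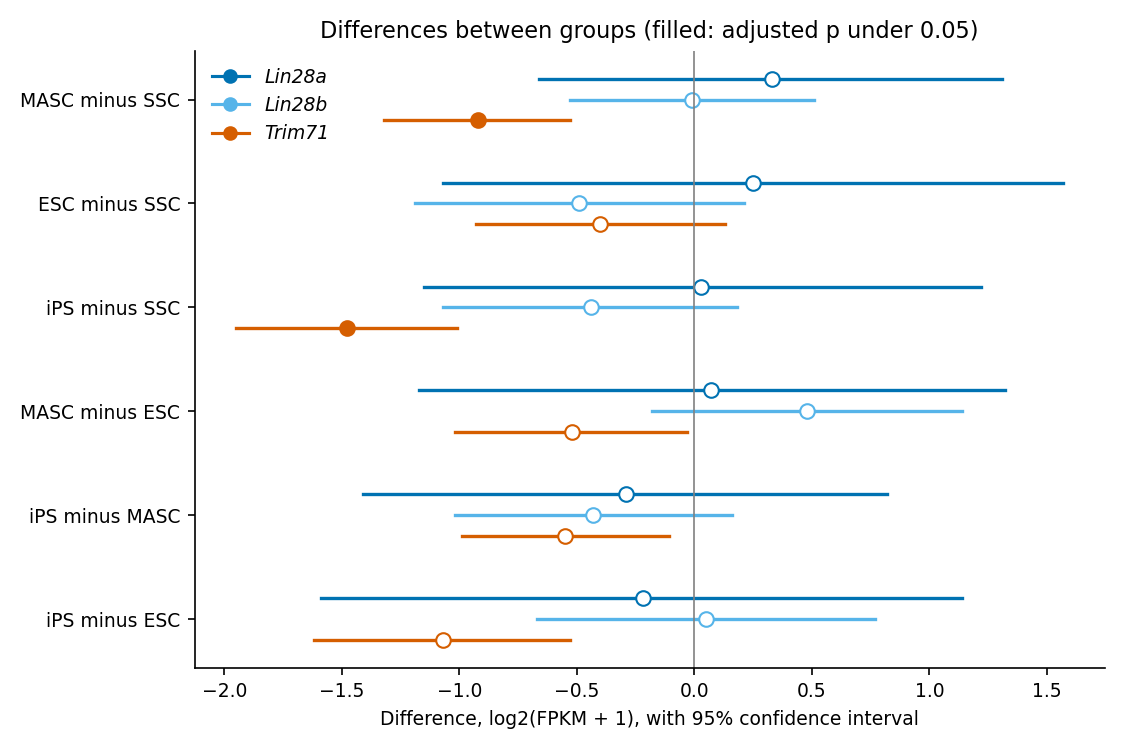
Differences in log2(FPKM + 1) between groups for Lin28a, Lin28b and Trim71, with 95% confidence intervals from limma, where filled points have an adjusted p under 0.05. Only Trim71 in MASC minus SSC (-0.92) and iPS minus SSC (-1.48) is filled, and the intervals of Lin28a are the widest.

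Lin28a and Lin28b were called in none of the 6 comparisons among SSC, MASC, ESC and iPS lines. Lin28a differed by 0.25 ± 0.59 for ESC minus SSC, 0.07 ± 0.55 for MASC minus ESC and 0.03 ± 0.54 for iPS minus SSC (log2 scale, SE). For Lin28b the same differences were -0.49 ± 0.31, 0.48 ± 0.30 and -0.44 ± 0.29. Neither gene had an unadjusted limma p under 0.05 in any of the 6 comparisons (0 of 2 in each).

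L1td1 had 0.0995, 0.232, 0.199 and 0.00863 FPKM in SSC.1 to SSC.4. The upper confidence bounds that the authors deposited for these values, which cover the estimate in 1 library, were 0.0259 to 0.311 FPKM. In MASC lines the lowest value was 96.0, the median 220.5 and the highest 272.4 FPKM, a mean of 202.8 ± 69.7 (SD, n = 6). The highest SSC line (0.232) and the lowest MASC line (96.0) are thus far apart. The log2(FPKM + 1) was 7.41 higher in MASC than in SSC lines, a size that depends on the pseudocount because SSC values are near 0. The ESC lines had 180.8 and 291.3 FPKM and the iPS lines 151.1 and 133.8, all within or close to the MASC range. For iPS minus ESC, a comparison that the choice of L1td1 did not use, the difference was -0.69 ± 0.42 (95% confidence interval -1.60 to 0.23, limma adjusted p = 0.848).

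By level, L1td1 was last of the 4 genes in SSC lines and first in the pluripotent lines, while Lin28a, Trim71 and Lin28b kept their order. L1td1 was included for its rise from SSC to MASC lines, so its change of place in MASC lines restates that choice. In the SSC lines the order was Lin28a (median 92.8 FPKM), Trim71 (41.1), Lin28b (5.47) and L1td1 (0.149). In MASC lines it was L1td1 (220.5), Lin28a (106.5), Trim71 (20.8) and Lin28b (6.32). In ESC and iPS lines the order was the same as in MASC lines. Neighbours overlapped in both: Lin28a and Trim71 in SSC lines, where Lin28a of SSC.2 and SSC.3 (44.6 and 36.9) was within the range of Trim71, and L1td1 and Lin28a in MASC lines, where L1td1 of MASC.1 (96.0) was within the range of Lin28a.

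Within the MASC lines, the levels of L1td1 and Lin28b went with strain. L1td1 was at 96.0 and 151.8 FPKM in the 2 Oct4-GFP lines, 252.7 and 272.4 in the 129mix lines, and 255.4 and 188.3 in the Gt(ROSA26)Sor-lacZ lines. Lin28b was at 3.87 and 4.24 FPKM in the Oct4-GFP lines, 5.68 and 7.90 in the 129mix lines, and 6.96 and 8.45 in the Gt(ROSA26)Sor-lacZ lines. For both genes the Oct4-GFP lines thus did not overlap the other MASC lines, whereas the 129mix and Gt(ROSA26)Sor-lacZ lines overlapped each other. The Oct4-GFP ESC line was likewise below the 129mix ESC line, with 180.8 against 291.3 FPKM of L1td1 and 3.18 against 4.94 of Lin28b. The iPS lines, both 129mix, did not share the higher levels. They had 151.1 and 133.8 FPKM of L1td1 and 4.44 and 3.88 of Lin28b, below the 129mix MASC and ESC lines. The SSC lines of Oct4-GFP held both the lowest and the highest Lin28b of their group (4.88 and 8.80). The same Oct4-GFP lines had the highest sums of fibroblast markers in their groups, at 849.8 and 101.5 FPKM in MASC.1 and MASC.2 against 17.4 to 47.8 in the other MASC lines, and 316.7 against 57.5 in the ESC lines, and their part in these levels was not tested.

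Against the somatic samples, Lin28a, Lin28b and Trim71 were higher in SSC lines. Lin28a was at 0.392 and 0.0176 FPKM in the HSC cultures, Lin28b at 0.0176 and 0.0296, and Trim71 at 0.0490 and 0.160. SSC minus HSC was 6.12 ± 0.54 for Lin28a (limma over 17 samples, adjusted p = 3.84e-06), 2.78 ± 0.29 for Lin28b (adjusted p = 1.37e-05) and 5.16 ± 0.21 for Trim71 (adjusted p = 4.47e-09), all on the log2 scale. All 3 were called higher, compared with 20.7% of transcripts called higher and 33.4% called in either direction. L1td1 was at 0.301 and 0.0281 FPKM in the HSC cultures, which overlapped the SSC lines. The MEF sample had 0.0673 FPKM of Lin28a, 0.00771 of Lin28b, 0.204 of Trim71 and 0.0585 of L1td1. With this 1 sample no test was made, and iPS lines exceeded it by 6.31, 2.36, 3.56 and 7.08 on the log2 scale in the same order of genes. None of the 4 genes reached 1 FPKM in the MEF sample, the cell type that also served as feeder.

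The genes whose pattern over the 17 samples was most like each member were found by Pearson's r of log2(FPKM + 1) over 13646 symbols with a mean of at least 1 FPKM. Such values mostly reflect the steps between groups. For Lin28a these were Fam169a (r = 0.981), Ttc27 (0.980) and Sall4 (0.980), the last a zinc finger factor of both spermatogonia and pluripotent cells, at 22.0 to 63.1 FPKM in SSC and 47.5 to 68.0 in MASC lines. For Lin28b they were Atf7ip2 (0.967), Zfp280b (0.966) and Tex10 (0.966). For Trim71 they were Rnf17 (0.980), Psip1 (0.975) and Gprasp1 (0.975). Rnf17, a tudor-domain gene of germ cells, was at 26.6 to 33.1 FPKM in SSC lines and 9.71 to 14.7 in MASC lines. For L1td1 they included Dnmt3l (0.998), a cofactor of the de novo DNA methyltransferases, and Zscan10 (0.995), a zinc finger factor of pluripotent cells. Dnmt3l was at or below 0.569 FPKM in SSC and between 53.9 and 188.6 in MASC lines. Among the members, r was 0.925 for Lin28a and Lin28b, 0.945 for Lin28a and Trim71, and 0.909 for Lin28b and Trim71. L1td1 had 0.576, 0.480 and 0.354 with Lin28a, Lin28b and Trim71 (17 samples each). Because L1td1 was included for its rise from SSC to MASC lines, its lower r with the other members partly restates that choice. The same holds for the genes most like it.

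Of 24 genes that process microRNAs or act with LIN28 in doing so, 4 rose, 9 fell and 11 were not called in MASC minus SSC. Over all transcripts, 11.4% were called higher and 19.5% lower. The median difference of the list was 0.05 on the log2 scale, beside -0.005 for all transcripts and -0.104 for those with a mean of at least 1 FPKM. Only 13532 to 16272 of the 32661 transcripts reached 1 FPKM, depending on the sample. A share among expressed transcripts is not given here, so the counts do not set the list apart. Without MASC.1, MASC.5, MASC.6 or SSC.4 the number that rose was 2. The 4 that rose were Ago2, an Argonaute that holds the mature microRNA (1.05 ± 0.21, adjusted p = 0.00459), Prkra, a partner of Dicer (0.59 ± 0.20, adjusted p = 0.0494), Zcchc6, a terminal uridylyltransferase (0.59 ± 0.10, adjusted p = 0.00197), and Khsrp, which binds let-7 precursors (0.45 ± 0.15, adjusted p = 0.0423). The other Argonautes that were called fell, with Ago3 at -1.16 ± 0.11 (adjusted p = 5.56e-05) and Ago4 at -1.14 ± 0.08 (adjusted p = 8.27e-06), as did Dicer1, the enzyme that Prkra partners (-0.69 ± 0.15, adjusted p = 0.00698). Zcchc11, the paralogue of Zcchc6 and likewise a terminal uridylyltransferase, fell from 15.6 to 30.4 FPKM in SSC lines to 10.5 to 14.8 in MASC lines (-0.76 ± 0.17, adjusted p = 0.00743). The largest falls were those of Tnrc6b and Tnrc6c, GW182 proteins that join Argonaute to the silencing machinery, and of the Musashi genes Msi1 and Msi2, RNA-binding proteins of which MSI1 has been described as a partner of LIN28. Tnrc6b fell from 4.33 to 9.60 FPKM in SSC lines to 0.488 to 1.48 in MASC lines (-2.11 ± 0.21, adjusted p = 5.29e-05), and Tnrc6c from 20.8 to 31.2 FPKM to 5.52 to 8.44 (-1.66 ± 0.13, adjusted p = 1.56e-05). Msi1 differed by -1.76 ± 0.44 (adjusted p = 0.0132) and Msi2 by -1.44 ± 0.28 (adjusted p = 0.00369). In ESC minus SSC 2 of the 24 were called higher and 8 lower (7.67% and 13.8% of all transcripts), and in iPS minus SSC 4 and 9 (8.93% and 15.6%). In MASC minus ESC, where 0.0306% of all transcripts were called, limma called 0 of 24, and 0 had an unadjusted p under 0.05.

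Of 25 genes known as let-7 targets, 11 rose, 5 fell and 9 were not called in MASC minus SSC, beside 11.4% of all transcripts called higher and 19.5% lower. The median difference of the list was 0.51, beside -0.005 for all transcripts and -0.104 for those with a mean of at least 1 FPKM. The limit given above on shares of all transcripts applies here too. With strain as a block, 7 were called higher and 5 lower. The 1 transcript taken for Myc, the transcription factor, was at 0.00343 to 2.50 FPKM in SSC and 5.92 to 29.3 in MASC lines (2.81 ± 0.59, adjusted p = 0.00509). Its lowest value was that of SSC.3, and the other SSC lines had 2.42 to 2.50 FPKM. The 5 that fell included Ccnd2, the cyclin D2 of proliferating spermatogonia, from 34.6 to 310.1 FPKM in SSC lines to 2.06 to 13.7 in MASC lines (-3.82 ± 0.72, adjusted p = 0.00277), and Igf1r, the IGF1 receptor, from 9.36 to 21.7 FPKM to 1.62 to 4.10 (-2.11 ± 0.27, adjusted p = 0.000268). The others were Plagl2 (-1.59), Arid3a (-1.19) and Insr (-0.53). The list thus moved in both directions. In ESC minus SSC 5 were called higher and 4 lower (7.67% and 13.8% of all transcripts), and in iPS minus SSC 2 and 6 (8.93% and 15.6%). In MASC minus ESC limma called 0 of 25 (0.0306% of all transcripts), with 1 at an unadjusted p under 0.05.

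**Figure D4:**
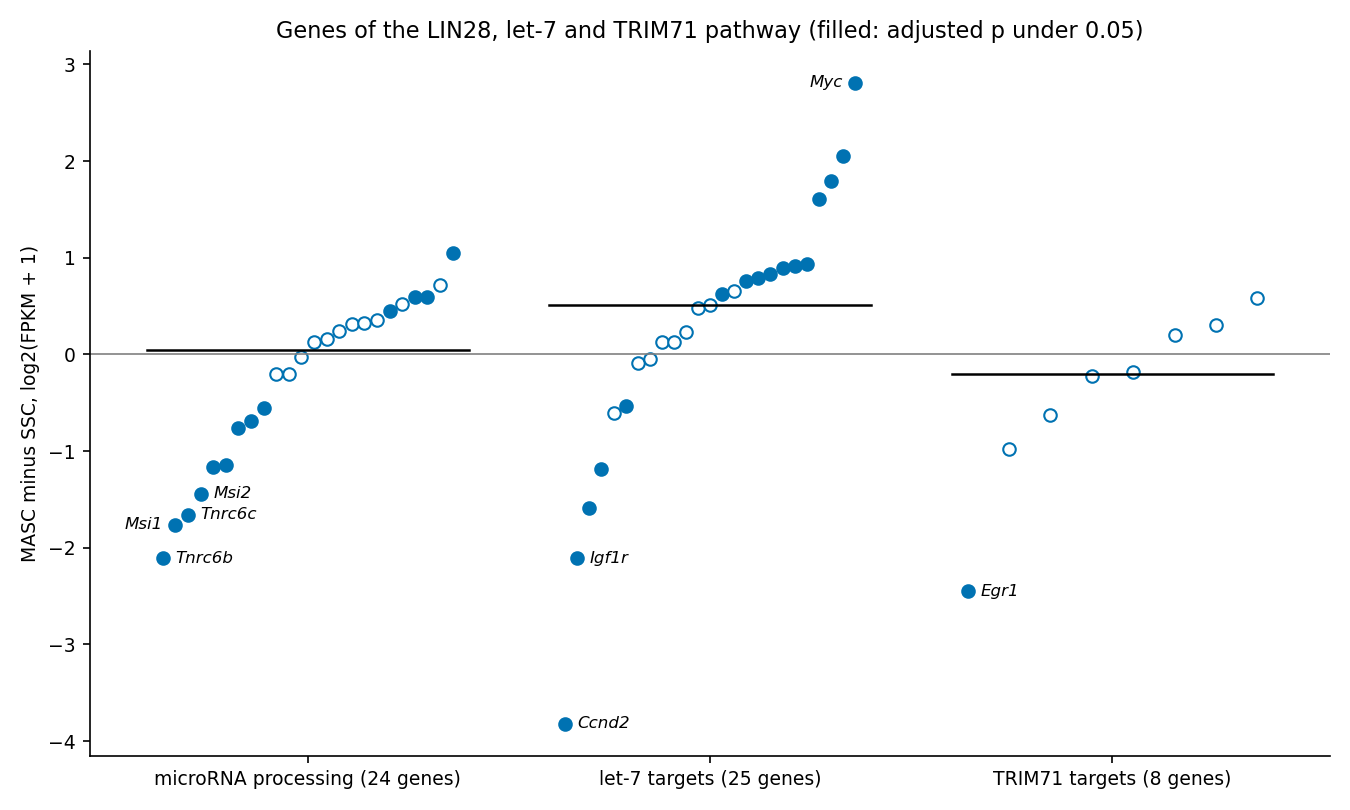
MASC minus SSC in log2(FPKM + 1) for each gene of 3 lists, ordered by value within a list, where filled points have an adjusted p under 0.05, bars are medians and the named genes are among the called genes with the largest differences. The microRNA processing genes centre on 0.05 with more filled points below 0 (9) than above (4), and the let-7 targets centre on 0.51, with 11 filled points above 0 and 5 below.

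For 8 genes described as TRIM71 targets, the median MASC minus SSC difference was -0.20, beside -0.005 for all transcripts and -0.104 for those with a mean of at least 1 FPKM. Of the 8, 1 (12.5%) was called, a smaller share than the 30.9% of all transcripts. This was Egr1, an immediate early transcription factor, with 118.5, 50.9, 106.3 and 43.4 FPKM in SSC.1 to SSC.4 and 5.18 to 78.8 in MASC lines (-2.45 ± 0.79, adjusted p = 0.0404). The groups overlapped, and no gene of the list was called with strain as a block or without MASC.3, MASC.4, MASC.5, MASC.6, SSC.2, SSC.3 or SSC.4, whereas 2 were called without MASC.2. The highest MASC value (78.8) was that of MASC.1, the line with the highest sum of fibroblast markers, and Egr1 was at 258.8 FPKM in the MEF sample. Cdkn1a, the cell cycle inhibitor p21, differed by 0.58 ± 0.42 (adjusted p = 0.363).

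The let-7 precursors themselves could not be followed in these files. The 12 hairpin entries are 83 to 108 bases long, and 5 of them were listed at 0 in every sample. The highest values were those of Mirlet7d, at 57.1, 11.1, 73.5 and 29.7 FPKM in SSC.1 to SSC.4 and 0 to 44.9 in MASC lines, a difference of -1.75 ± 1.03 on the log2 scale (adjusted p = 0.249). Limma called 0 of the 12 entries in each of the 7 comparisons, with 0 to 2 at an unadjusted p under 0.05, and mature let-7 was not measured by these libraries.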

How the data were processed

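RNA was extracted from cultured cells (RNeasy), and TruSeq libraries were sequenced on an Illumina HiSeq. The authors aligned reads to mm9 with TopHat2 2.0.11, excluded PCR duplicates and reads mapping to more than 1 place, and deposited Cufflinks FPKM values per RefSeq transcript, with upper-quartile and GC-normalization. This leaves out reads that map to both Lin28a and Lin28b. The authors also deposited confidence bounds and a coverage signal in reads per base. The Cufflinks version is not given in the sources used here. Read counts are not part of these tables. Counting error was therefore not computed, and precision is limited at low FPKM.

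Of 33262 entries per file, 601 further loci of a transcript were left out and 32661 transcripts analysed, as log2(FPKM + 1), a pseudocount of 1, with no filter on low values. Groups and replicate numbers came from the sample titles, and strain from the labels. limma 3.58.1 in R 4.3.3 (eBayes without a trend) was fitted over the 12 SSC, MASC and ESC lines, or over all 17 samples where iPS or HSC samples were compared, and p-values were adjusted by Benjamini-Hochberg over all transcripts, with a call at an adjusted p under 0.05. This step was checked on simulated data with known differences. Lines and cultures were the replicates, and where no source says that lines came from separate animals, p-values measure the spread between these lines only. The balance of Lin28a and Lin28b was compared by an exact permutation test. The genes, gene lists and tests were chosen with earlier results of these data known. Named genes were the 4 members, up to 4 called genes of each list with the largest MASC minus SSC difference, all genes behind a count of 5 or fewer, and the 3 symbols most like each member, but 2 genes that this rule picked are not reported here. Zcchc11, Ago3, Ago4, Dicer1, Cdkn1a and Mirlet7d were named after their values had been seen. Alternatives were a pseudocount of 0.1, a filter of at least 1 FPKM in 2 samples, quantile normalization, eBayes with trend and robust estimation, a fit over all 17 samples, blocks for replicate number and strain, summed transcripts per symbol, a log2 difference of at least 2, and each replicate left out. The 17-sample fit, strain block, summed transcripts and log2 difference of at least 2 were applied only to comparisons among SSC, MASC and ESC lines. Highest r between 2 samples of a group was 0.984, and no 2 files were identical.

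let-7 sequences were read from a RefSeq table (GRCm38.p6). 3′ UTRs came from GENCODE M1, whose 4 transcripts matched the mm9 genome at every base, with the transcript nearest in length to the RefSeq one taken for each gene. Protein sequences were not analysed here.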

Additional observations from a re-analysis of the deposited data

Results flagged for a closer look

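Among the 10 sets of line values examined (each gene, and the Lin28a to Lin28b difference, in SSC and MASC lines), 1 held a line far from the others, and by construction the rule marks about 1 in 20 of single sets by chance. This was Lin28b in SSC.2, at 8.80 FPKM, where the other SSC lines had 4.88 to 5.51 and the gap to the nearest was 0.84 of the group's range. SSC.2 was also the SSC line with the lowest ratio of Lin28a to Lin28b (5.06).

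Lin28b also moved in opposite directions in the strains that have both SSC and MASC lines. In Oct4-GFP both MASC lines (3.87 and 4.24 FPKM) were below both SSC lines (4.88 and 8.80), a difference of -0.59 on the log2 scale. In 129mix both MASC lines (5.68 and 7.90 FPKM) were above the SSC line (5.51), a difference of 0.24. There the deposited bounds of MASC.3 (5.38 to 5.98) and of the SSC line (5.19 to 5.83) overlapped. Lin28a differed in sign as well, at 0.15 in Oct4-GFP, where the SSC and MASC lines overlapped, and -0.71 in 129mix. With 2 MASC lines a strain and 1 SSC line in 129mix, the difference between strains was not tested.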

How the results depend on the processing

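The fall of Trim71 in MASC minus SSC kept its direction and its call in every alternative but the threshold of a log2 difference of at least 2, where -0.92 was not called. Its fall in iPS minus SSC kept both in every alternative run for that comparison. A strain block, summed transcripts and the threshold of 2, which -1.48 does not reach, were not run there. No alternative called Lin28a or Lin28b among SSC, MASC, ESC and iPS lines, but the signs of small differences turned. Lin28a turned with a strain block in MASC minus SSC (-0.18) and ESC minus SSC (-0.23), and with quantile normalization in iPS minus SSC (-0.18). With quantile normalization Lin28b in MASC minus SSC became 0.26 and the Lin28a minus Lin28b difference -0.19. The cause was not tested. With replicates left out in turn, Lin28a ranged from -0.05 to 0.73 in MASC minus SSC, -0.12 to 0.65 in ESC minus SSC, -0.13 to 0.28 in MASC minus ESC and -0.34 to 0.43 in iPS minus SSC, Lin28b from -0.10 to 0.15 in MASC minus SSC and -0.20 to 0.30 in iPS minus ESC, and the Lin28a minus Lin28b difference from -0.11 to 0.77.

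With a pseudocount of 0.1, L1td1 rose to 9.79, 10.06 and 9.37 in MASC, ESC and iPS minus SSC, and iPS minus MEF became 8.97 for Lin28a, 5.30 for Lin28b, 5.45 for Trim71 and 9.81 for L1td1, because values near 0 then weigh more. With quantile normalization iPS minus MEF hardly moved, at 3.56 for Trim71 (3.56 in the main setting) and 6.93 for L1td1 (7.08).

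Replicate numbers recur across groups, but deviations of same-numbered SSC and MASC lines correlated at -0.225 to 0.185 (4 pairs). For same-numbered SSC and ESC lines r was 0.208 and 0.262, and for MASC and ESC lines -0.355 and 0.414. With only 2 ESC lines, their deviations from the group mean mirror each other, so these r values cannot decide on pairing. Some same-numbered lines differed in strain, such as SSC.3 (C57Bl/6J) and MASC.3 (129mix), or SSC.2 (Oct4-GFP) and ESC.2 (129mix). The numbers were therefore not taken as pairs. With a replicate block, the transcripts called were 5945 in MASC minus SSC (10099 without it), 3377 in ESC minus SSC (7000), 2 in MASC minus ESC (10), 84 in iPS minus MASC (642) and 36 in iPS minus ESC (101). With the same block, Lin28a in MASC minus ESC was -0.06, L1td1 was 7.24 in iPS minus SSC and -0.29 in SSC minus HSC, 0 microRNA processing genes rose, 3 let-7 targets rose and 2 fell, and 0 TRIM71 targets were called. Trim71 in MASC minus SSC stayed called (-0.88).

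With a log2 difference of at least 2, the transcripts called were 1262, 1332 and 5 in MASC minus SSC, ESC minus SSC and MASC minus ESC, and the list counts were 0 higher and 1 lower for microRNA processing and 2 and 2 for let-7 targets. MASC minus ESC gave 17 with a pseudocount of 0.1. With the filter on low values it gave 6, iPS minus MASC 426 and iPS minus ESC 21, and 2 TRIM71 targets were called lower. With a strain block 7 let-7 targets rose and 0 TRIM71 targets fell. With replicates left out, counts ranged from 4149 to 7372 in ESC minus SSC, 4457 to 8426 in iPS minus SSC, 7 to 108 in MASC minus ESC, 202 to 616 in iPS minus MASC and 104 to 176 in iPS minus ESC, with 2 to 5 processing genes higher and 0 to 2 TRIM71 targets lower. The files give a coverage but no read counts, and differences among the values near 0 (L1td1 in SSC, HSC and MEF samples) were not read.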
